A study of Mus musculus with 4 samples.

Results

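The carcinoembryonic antigen-related cell adhesion molecules (CEACAMs) were examined in mouse liver RNA through 8 of the 16 Ceacam genes counted in the deposited files, which list 27179 genes in all. The members were picked by gene symbol, matched to the Entrez identifier of each count row: Ceacam9, Ceacam11, Ceacam12, Ceacam13, Ceacam14 and Ceacam15 as the 6 placental members, and Ceacam1 and Ceacam2 as the 2 general members. They were chosen on their measured counts in fasted against non-fasted libraries, so their values in that comparison are given as a description, without a test.

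The libraries came from total RNA of liver of C57BL/6 wild-type mice labelled male, with 2 libraries labelled fasted and 2 labelled unfasted, called non-fasted here. Fasted mice had gone overnight without food but with water, and the non-fasted mice had food and water throughout. Age-matched and sex-matched animals are described without an age, and no label ties a library to a mouse or says whether animals were pooled. By their labels both groups share strain, genotype and tissue, and no transgene, deletion or drug is named. The groups follow the sample titles, because the treatment field gives fasting for each of the 4 libraries.

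CEACAMs are cell surface or secreted glycoproteins of the immunoglobulin superfamily. CEACAM1, formerly called biliary glycoprotein, sits on the bile canalicular membrane of hepatocytes, is phosphorylated by the insulin receptor and promotes the uptake and clearance of insulin. Its long cytoplasmic tail carries inhibitory motifs that recruit tyrosine phosphatases, and in mice it is the receptor of a hepatitis coronavirus. CEACAM2 is its close relative. Rodents carry additional Ceacam genes that are transcribed mainly in trophoblast, the fetal epithelium of the placenta, next to the related pregnancy-specific glycoproteins (Psg genes).

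Both non-fasted libraries stood apart from their labels, liver of male mice, before any Ceacam gene was considered. Their 14 trophoblast markers summed to 53375 and 53902 CPM, against 2.95 and 2.74 CPM in the fasted libraries, where CPM are counts scaled to a library total of 1000000. Of these markers, Tpbpa of the spongiotrophoblast was the most abundant, and 8 were at 0 in both fasted libraries (Prl3d1, Prl2c2, Prl8a8, Hand1, Gcm1, Syna, Synb and Ascl2). Synb was at 0 in all 4 libraries. The 14 hepatocyte markers, led by Alb, summed to 133606 and 133841 CPM in the fasted libraries and 54848 and 54550 CPM in the non-fasted libraries, so the liver label was met by its own markers in both groups. Total counts were 13541405 and 13528015 in the fasted libraries, against 36975921 and 36943535 in the non-fasted libraries. Within a group the libraries were close to counting noise, with a mean squared deviation of 1.12 times the counting variance in the fasted pair and 1.13 times in the non-fasted pair. P-values therefore cover this spread alone, and it may be technical. Both non-fasted libraries carry the trophoblast RNA, so no comparison could be made without it, and fasting and trophoblast RNA cannot be told apart.

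4 of the 6 placental members are close relatives by coding sequence, which matters for how reads can be assigned to each of them. The first 60 coding bases of the abundant members are shown for this reason, from GENCODE transcripts of the GRCm38 build (chromosome 7, forward strand), with capitals where a base differs from Ceacam11 at the same position.
Ceacam11: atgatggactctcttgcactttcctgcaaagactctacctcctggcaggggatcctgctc
Ceacam14: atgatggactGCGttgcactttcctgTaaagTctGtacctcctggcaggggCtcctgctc
Ceacam13: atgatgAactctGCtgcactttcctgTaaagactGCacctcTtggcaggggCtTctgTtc
Ceacam12: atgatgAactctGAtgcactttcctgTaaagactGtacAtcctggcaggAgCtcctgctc
Over these 60 bases Ceacam14 differed from Ceacam11 at 7 positions, Ceacam12 at 8 and Ceacam13 at 10. Over the whole aligned coding sequence, the 6 pairs among these 4 genes were 82.8% to 88.2% identical, and the closest pair was Ceacam14 with Ceacam13. Ceacam9 and Ceacam15 lay outside this group, at 55.4% to 60.7% identity to the 4, and were 62.8% identical to each other, within the 60.6% to 64.5% between placental and general members. Despite the likeness, only 9 stretches of 50 bases were identical between Ceacam13 and Ceacam14 (0.941% and 0.849% of their transcripts), and Ceacam9, Ceacam11, Ceacam12 and Ceacam15 shared none with any other annotated transcript. Only the longest coding transcript of each of these genes was searched, and for Ceacam12 it has 1056 bases, where its exons span 2624. A read of 50 bases could thus be placed on 1 gene almost everywhere in the searched transcripts.

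Ceacam1 and Ceacam2 were the exception, and their first 60 coding bases (chromosome 7, reverse strand) are shown as an example of their likeness. Every 50-base stretch within these 60 bases includes a capital, so the shared stretches counted below do not lie wholly within them. Capitals mark the 3 positions at which Ceacam2 differs from Ceacam1.
Ceacam1: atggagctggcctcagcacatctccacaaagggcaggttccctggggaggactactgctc
Ceacam2: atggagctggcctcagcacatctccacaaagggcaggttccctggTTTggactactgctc
Their coding sequences were 90.5% identical. Of the 50-base stretches of Ceacam1, 40.6% also occurred in another gene, 1108 of 2824 of them in Ceacam2, and of those of Ceacam2 40.4%. How reads that fit several genes were counted is not given in the sources used here, so the split of counts between these paralogs is uncertain.

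**Figure D1:**
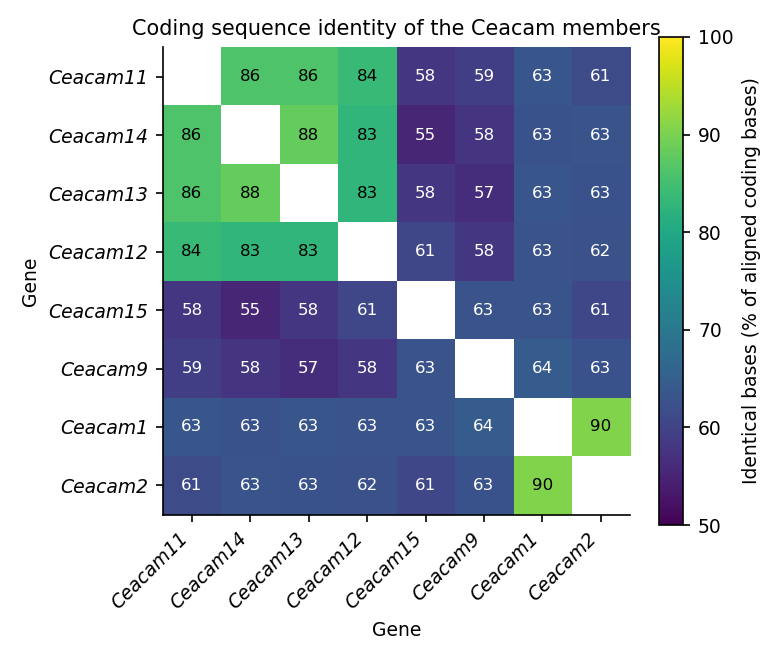
Percent of identical bases among aligned coding bases for each pair of the 8 Ceacam members, both axes listing the genes and colour running from 50% to 100%. Ceacam11, Ceacam14, Ceacam13 and Ceacam12 form a block of 82.8% to 88.2%, and Ceacam1 with Ceacam2 a pair at 90.5%.

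In the fasted libraries the placental members had 0 or 1 count each, whereas in the non-fasted libraries they ranged from 23 counts for Ceacam9 to 340098 for Ceacam11. Ceacam11 had 0 and 0 counts in the fasted libraries, against 335119 and 340098 in the non-fasted libraries. Setting the fasted group to the floor of 3 counts over both libraries, Ceacam11 was at least 58102-fold lower in fasted libraries after median-of-ratios scaling, which divides each library by its median ratio to the average library. This bound depends on the depth of the fasted group: on the log2 scale it is -15.83, and -14.79 without fasted library 1 or -14.80 without fasted library 2. Ceacam11 alone took 9063 and 9206 CPM of the non-fasted libraries. It was the most abundant member by far.

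Ceacam14 had 0 and 0 counts in the fasted libraries, against 123809 and 125254 in the non-fasted libraries, at least 21432-fold lower in fasted libraries. Ceacam13, its closest relative in sequence, had 0 and 0 counts in the fasted libraries and 23603 and 23940 in the non-fasted libraries, at least 4091-fold lower. For this pair, likeness in coding sequence did not come with a like count. Ceacam12 was the one placental member with any fasted read, with 0 and 1 counts in the fasted libraries, against 100892 and 101572 in the non-fasted libraries. Its level in non-fasted libraries was 52266 times that in fasted libraries (exact 95% counting interval 9381 to 2.06e+06), a ratio that rests on that single count. Leaving out a fasted library also moved the log2 bounds of Ceacam14 (-14.39, then -13.35 without fasted library 1 and -13.36 without fasted library 2) and of Ceacam13 (-12.00, then -10.96 and -10.97). For Ceacam12 the log2 ratio of -15.67 was -14.64 without fasted library 1, and without fasted library 2, where the fasted count is 0, the bound was -13.06.

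Ceacam15 and Ceacam9, both outside that block, had fewer counts. Ceacam15 had 0 and 0 counts in the fasted libraries, against 4296 and 4392 in the non-fasted libraries, at least 748-fold lower. Ceacam9 had 0 and 0 counts in the fasted libraries, against 23 and 35 in the non-fasted libraries, at least 4.99-fold lower. Ceacam9, a trophoblast gene that mice can lack without a placental defect, was thus the lowest placental member, and its bound is small because its counts are few. Without fasted library 1 or 2 the log2 bounds were -8.51 or -8.52 for Ceacam15 in place of -9.55, and -1.28 or -1.29 for Ceacam9 in place of -2.32. The 6 placental members were chosen on this contrast, so their shared direction says nothing beyond the choice. Over all tested genes 45% were called lower in fasted libraries. Intervals and floors here cover counting error only.

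**Figure D2:**
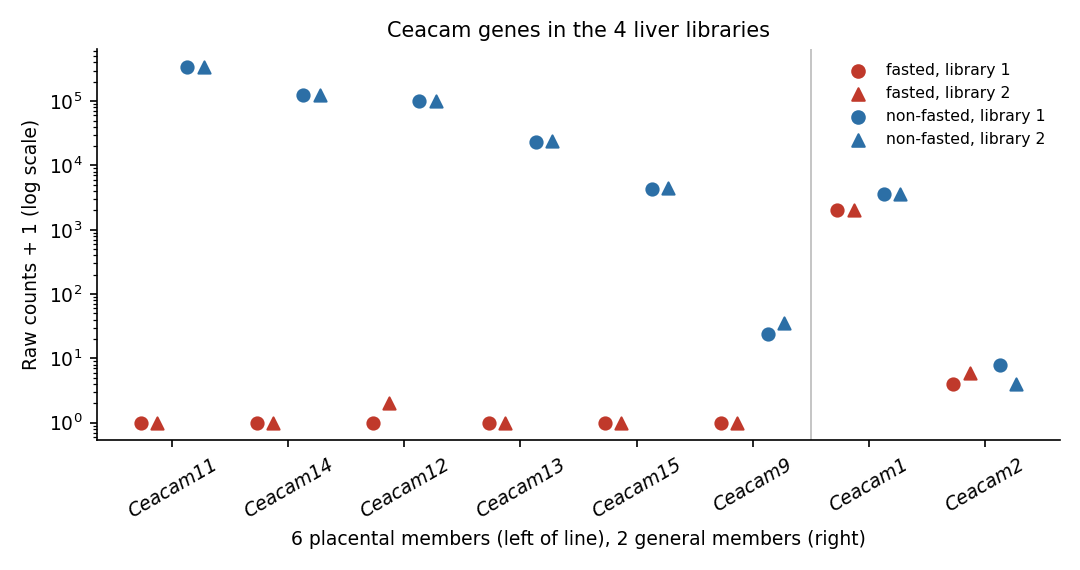
Raw counts plus 1 on a log axis for the 8 Ceacam members, with red fasted and blue non-fasted libraries, circles for library 1 and triangles for library 2. The 6 placental members have 0 or 1 count in fasted libraries and between 23 and 340098 in non-fasted libraries, whereas Ceacam1 and Ceacam2 are counted in all 4.

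Summed, the 6 placental members made up 1.59% of all counts in non-fasted library 1 (Wilson 95% interval 1.586 to 1.594%) and 1.61% in non-fasted library 2 (1.607 to 1.615%). The fasted libraries held 0 and 1 of these counts, where a count of 0 allows a share of up to 2.2e-05% of a library. The same genes contributed in nearly the same proportions in both non-fasted libraries. Ceacam11 gave 57.0% and 57.1% of the placental Ceacam counts, Ceacam14 21.1% and 21.0%, and Ceacam12 17.2% and 17.1%. Ceacam13 followed with 4.02% in each, then Ceacam15 with 0.731% and 0.738%, and Ceacam9 with 0.00391% and 0.00588%. The CPM of non-fasted library 1 was 0.977 to 0.992 times that of library 2 for Ceacam11 to Ceacam15. For Ceacam1 it was 1.01 times, on 3624 against 3593 counts. No interval was computed for these ratios, so a difference between the placental members and Ceacam1 is not shown. For Ceacam9 the ratio was 0.657, on 23 against 35 counts.

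To compare genes with each other, counts were divided by exon length, giving counts per kilobase in the non-fasted libraries (mean ± SD, n = 2). Ceacam11 led with 320312 ± 3340, followed by Ceacam14 with 112292 ± 921. Ceacam12 had 38579 ± 183 and Ceacam13 21889 ± 219, with Ceacam5, no member, between them at 33495 ± 191. Ceacam15 had 3123 ± 48.8, Ceacam1 902 ± 5.48, Ceacam9 20.8 ± 6.08 and Ceacam2 1.36 ± 0.769. The distance from Ceacam11 to Ceacam9 per kilobase was 15419-fold. Ceacam1, the only abundant family member in fasted libraries, lay 355-fold below Ceacam11 in the non-fasted libraries and 43.4-fold above Ceacam9. Among all 16 genes, each neighbour in this order differed by more than the sum of both SDs except Ceacam2 and Ceacam20 (0.866). The order depends on which exons count: over the longest coding transcript alone, Ceacam12 reached 95864 per kilobase, still below Ceacam14, and Ceacam1 reached 1256, above the 1092 of the pseudogene Ceacam-ps1.

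By position on chromosome 7, the 4 abundant placental members stand in a row with 1 interruption. The order in the RefSeq annotation was Ceacam5, Ceacam14, Gm5155, Ceacam11, Ceacam13, Ceacam12 and then Igfl3. Gm5155 had 0 and 1 counts in the fasted libraries and 21075 and 21188 in the non-fasted libraries, so every gene from Ceacam5 to Ceacam12 was near 0 in fasted libraries and had 21075 or more counts in each non-fasted library. Ceacam5 shared 444 stretches of 50 bases with Gm5155, so the split of counts between Ceacam5 and Gm5155 is uncertain. After Ceacam12 came Igfl3, with 0 and 0 counts in the fasted libraries and 6 and 2 in the non-fasted libraries, and Psg genes lay beyond it. Before Ceacam5 stood Psg-ps1, with 0 and 0 counts in the fasted libraries and 63479 and 63471 in the non-fasted libraries, and Psg29, Ceacam3 and Psg16 lay further out on that side, so genes of this pattern were not limited to the stretch from Ceacam5 to Ceacam12. Ceacam15 and Ceacam9 lie together elsewhere, between Ceacam-ps1 (0 and 0 counts in fasted, 1163 and 1166 in non-fasted libraries) and Ap2s1, a subunit of the clathrin adaptor, which was counted in both groups (561 and 502 in fasted, 2163 and 2062 in non-fasted libraries). Adjacent Ceacam15 and Ceacam9 differed 150-fold per kilobase in the non-fasted libraries. Ceacam1 and Ceacam2 are neighbours as well, between Cxcl17 (0 and 0 counts in fasted, 3 and 5 in non-fasted libraries) and Erich4 (0 and 0 in fasted, 0 and 1 in non-fasted libraries), both near 0 beside an abundant Ceacam1.

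**Figure D3:**
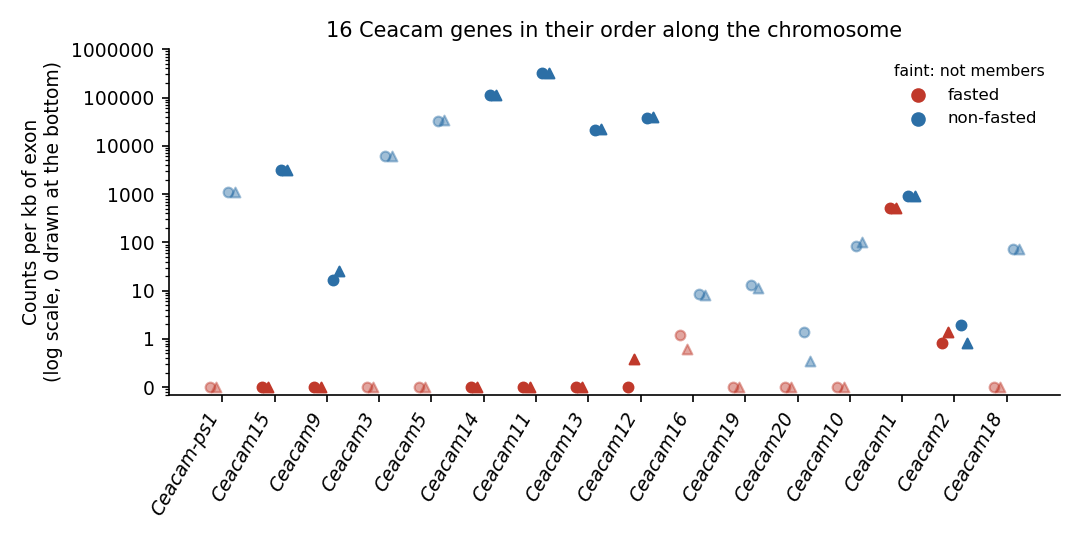
Counts per kilobase of exon on a log axis, with 0 drawn at the bottom, for 16 Ceacam genes in their order along chromosome 7 (not to scale), red for fasted and blue for non-fasted libraries, faint where the gene is no member. The run from Ceacam5 to Ceacam12 is highest in non-fasted libraries, up to 320312 for Ceacam11, and Ceacam1 at 512 is the one tall point in fasted libraries.

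The stretches before the gene starts are shown next because they are alike among Ceacam11, Ceacam13 and Ceacam12, and also between Ceacam15 and Ceacam9, whose coding sequences are not close. RefSeq promoter windows of the GRCm38.p6 build, 250 bases before to 50 after each start, were found for 7 of the 8 members. Only bases before the start are printed. The windows of Ceacam11 and Ceacam13 aligned over 287 bases at 83.6% identity, and those of Ceacam11 and Ceacam12 over 208 bases at 84.6%. In Ceacam11 (chr7:17971917-17972036, forward strand, 250 to 131 bases before the start) and Ceacam13 (chr7:18009639-18009758, forward strand, 250 to 131 bases before the start), capitals mark matches to the CArG box, the motif bound by serum response factor. In Ceacam12 (chr7:18065763-18065882, forward strand, 166 to 47 bases before the start), they mark the bases aligned with the 2 matches of Ceacam11, which hold no match.
Ceacam11: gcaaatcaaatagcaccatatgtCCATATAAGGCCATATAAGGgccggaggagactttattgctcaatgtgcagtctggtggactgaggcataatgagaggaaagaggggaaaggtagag
Ceacam13: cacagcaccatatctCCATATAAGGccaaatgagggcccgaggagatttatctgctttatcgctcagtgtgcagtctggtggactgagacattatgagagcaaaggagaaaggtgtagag
Ceacam12: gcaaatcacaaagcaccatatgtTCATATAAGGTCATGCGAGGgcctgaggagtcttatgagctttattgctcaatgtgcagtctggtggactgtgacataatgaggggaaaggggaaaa
A CArG box stood in 1.57% of 27025 promoter windows of the same length. This motif was searched after the sequences had been seen, and a match is a description of letters, not of a bound site.

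Ceacam15 (chr7:16675706-16675811, reverse strand, 106 to 1 bases before the start) and Ceacam9 (chr7:16721767-16721872, forward strand, 162 to 57 bases before the start) are shown together for the same reason. Their windows aligned over 167 bases at 90.4% identity, although their levels in the non-fasted libraries differed 150-fold per kilobase. Capitals mark a match to GCCNNNGGC, the motif of the AP-2 factors, of which AP-2 gamma is expressed in trophoblast.
Ceacam15: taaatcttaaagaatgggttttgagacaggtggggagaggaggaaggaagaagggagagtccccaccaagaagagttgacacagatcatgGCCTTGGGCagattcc
Ceacam9: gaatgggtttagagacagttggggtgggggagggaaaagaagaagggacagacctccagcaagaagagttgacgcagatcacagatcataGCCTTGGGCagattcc
This match stood in 16.5% of all promoter windows. All motifs were searched on both strands. GGAATG, bound by TEAD factors and present in 14.6% of windows, had no match in any of the 7 member windows. Neither had the motif of the GATA zinc finger family, spelled GATAAG (7.43% of windows), nor ATGCGGGT, the site of the GCM factors (0.226% of windows). The TATA box TATAAA (14.2% of windows) matched, on the reverse strand, in Ceacam9, Ceacam11 and Ceacam12.

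The Ceacam1 window (chr7:25477626-25477745, reverse strand, 120 to 1 bases before the start) is the one member window that holds CACGTG, the E-box bound by the upstream stimulatory factors (USF), shown in capitals.
Ceacam1: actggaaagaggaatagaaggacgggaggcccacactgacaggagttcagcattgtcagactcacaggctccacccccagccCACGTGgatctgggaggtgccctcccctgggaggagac
The E-box stood in 7.24% of all windows. The Ceacam2 window aligned with that of Ceacam1 over 128 bases at 88.3% identity and held none. The window of Ceacam10, no member, was more alike still, at 93.2% over 280 bases, and held the E-box too.

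Ceacam1 was the only abundant Ceacam gene of the fasted libraries. It had 2047 and 2051 counts in the fasted libraries, against 3624 and 3593 in the non-fasted libraries, which are deeper. Its direction depended on the scale. As a share of all counts it had 151 ± 0.315 CPM in fasted and 97.6 ± 0.533 CPM in non-fasted libraries (SD, n = 2 each). After median-of-ratios scaling its level was 4033 ± 16.4 normalized counts in fasted libraries, against 1833 ± 10.2 in non-fasted libraries, a log2 fold change of 1.14 (SE 0.0284). Scaled instead so that the median hepatocyte marker was equal between libraries, it had 2183 ± 2.39 in fasted and 3387 ± 1.59 in non-fasted libraries, a log2 fold change of -0.63 (SE 0.0307). On each of these scales the libraries of a group nearly coincided.

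Divided by the summed hepatocyte-marker counts of the same library, Ceacam1 in fasted libraries was 0.634 times that in non-fasted libraries. This ratio uses the same markers as the hepatocyte-marker scaling, so it restates that scaling and is no separate support. CEACAM1 is also made by endothelial cells, epithelia and leukocytes, and the summed markers of each were higher in CPM in the non-fasted libraries. The marker counts that follow, by median of ratios, stand against 37.2% of all tested genes called higher and 45% called lower. The 8 endothelial markers summed to 177 and 179 CPM in fasted and 640 and 634 CPM in non-fasted libraries. Of these 8, 6 were lower and 2 higher in fasted libraries, and Cdh5 alone had 310 CPM in each non-fasted library. The 8 epithelial and cholangiocyte markers summed to 72.5 and 63.4 CPM in fasted and 506 and 504 CPM in non-fasted libraries, with 7 of 8 lower and 1 higher. For the 10 leukocyte markers the sums were 126 and 123 CPM in fasted and 824 and 828 CPM in non-fasted libraries, but of the 9 tested 4 were higher and 2 lower, and most of the non-fasted sum was Csf1r, a receptor also carried by trophoblast. Of 7 decidual stroma markers 5 were lower and 1 higher, and Prl8a2 was at 0 in the fasted libraries. They summed to 35.4 and 35.6 CPM in fasted and 4879 and 4931 CPM in non-fasted libraries. The part of these cell types in the Ceacam1 difference was not tested. In bulk RNA, fewer cells of a type and less RNA per cell cannot be told apart.

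**Figure D4:**
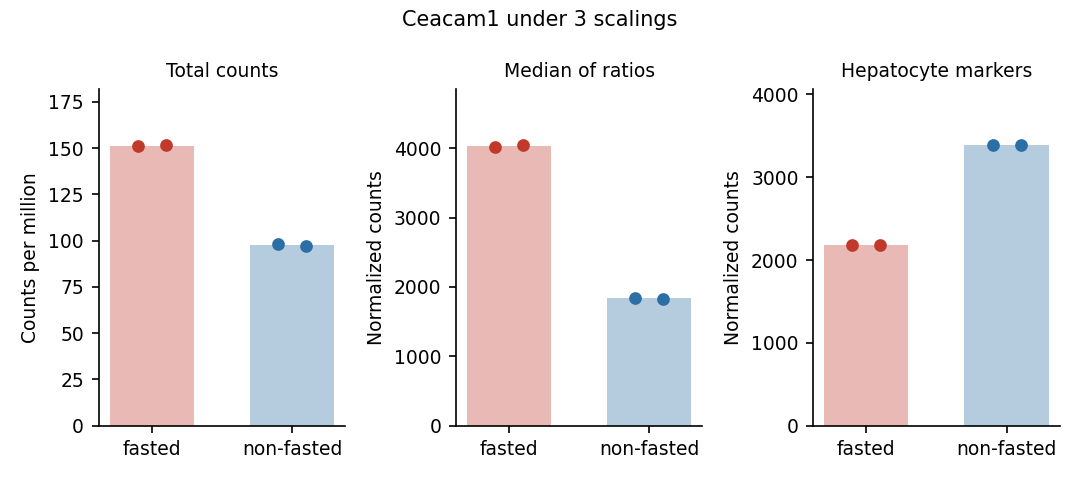
Ceacam1 in fasted (red, left) and non-fasted (blue, right) libraries under 3 scalings, with bars for the mean, points for the 2 libraries and linear axes from 0. The bar of fasted libraries is higher by CPM (151 against 97.6) and by median of ratios (4033 against 1833) and lower by hepatocyte markers (2183 against 3387).

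Ceacam2 was at the edge of detection in every library. It had 3 and 5 counts in the fasted libraries, against 7 and 3 in the non-fasted libraries, so the raw counts overlapped. After median-of-ratios scaling the summed level in fasted libraries was 3.10 times that in non-fasted libraries (exact 95% counting interval 1.06 to 8.72), a value that rests on 8 and 10 counts and on the scaling, since with hepatocyte-marker scaling its log2 ratio was -0.14. Ceacam1 exceeded it per kilobase 471-fold in fasted and 664-fold in non-fasted libraries. With this ratio, and 40.4% of its 50-base stretches found elsewhere, reads of Ceacam1 placed on Ceacam2 cannot be told apart from Ceacam2 reads.

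Ceacam2 did not pass the filter on low counts, so 7 of the 8 members entered the fit. By edgeR's quasi-likelihood test with Benjamini-Hochberg adjustment over the 15470 genes tested, 37.2% of genes were called higher and 45% lower in fasted libraries. Of the 7 tested members, Ceacam1 was higher and the 6 placental members lower. With hepatocyte-marker scaling 4.62% of all genes were called higher and 90.2% lower, and all 7 tested members were lower. Since the members were chosen from this contrast, these counts say nothing beyond the choice. The 6 placental members passed the filter only through the non-fasted libraries.

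Of the 8 Ceacam genes that are no members, 7 were in a list drawn up by family. Ceacam16 and Ceacam20 were too low to test, and the other 5 of the list were lower in fasted libraries, as were the 13 Psg genes. The pseudogene Ceacam-ps1, outside the list, was lower too. All of these tested genes had 2 or fewer counts in each fasted library and passed the filter only through the non-fasted libraries, so they could only be called lower, and the counts are no support for a direction. Ceacam5 had 0 and 0 counts in the fasted libraries and 109188 and 110072 in the non-fasted libraries, at least 18867-fold lower, but 13.8% of its 50-base stretches were shared with Gm5155. Ceacam3 had 0 and 0 counts in the fasted libraries and 20065 and 20079 in the non-fasted libraries, at least 3454-fold lower. Per kilobase in the non-fasted libraries, Ceacam5 lay between Ceacam12 and Ceacam13, and Ceacam3 between Ceacam13 and Ceacam15. Ceacam10 had 0 and 0 counts in fasted and 86 and 104 in non-fasted libraries, at least 16.3-fold lower. Ceacam18 had 0 and 0 in fasted and 144 and 143 in non-fasted libraries, at least 24.7-fold lower, and Ceacam19 0 and 0 in fasted and 43 and 38 in non-fasted libraries, at least 6.97-fold lower. Ceacam16, a protein of the inner ear, had 2 and 1 counts in fasted and 14 and 13 in non-fasted libraries, and Ceacam20 0 and 0 in fasted and 4 and 1 in non-fasted libraries. The 13 Psg genes, which encode secreted placental glycoproteins, summed to 5 and 6 counts in the fasted libraries, against 1432043 and 1435505 in the non-fasted libraries, or 3.87% and 3.89% of all counts there. Psg16 was the most abundant of them, with 1 and 1 counts in fasted and 379435 and 378371 in non-fasted libraries. Psg17, Psg18, Psg20, Psg22, Psg26, Psg28 and Psg29 had no fasted count.

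The genes whose pattern over the 4 libraries was most like that of a member were ranked by the root mean square difference of centred log2(normalized count + 1) values. Because libraries of a group nearly coincided, this pattern is mostly the contrast on which the members were chosen. The ranking is therefore a description and no separate support, and the genes nearest to Ceacam11 passed the filter only through the non-fasted libraries. For Ceacam1 they were Gm20056 (0.0055), Cps1 (0.0071), the first enzyme of the urea cycle in hepatocyte mitochondria, and Maf (0.0075), a transcription factor. Cps1 had 42884 and 42409 counts in the fasted libraries, against 75715 and 74769 in the non-fasted libraries. For Ceacam11 the nearest were Prl3b1 (0.64), which encodes a placental lactogen, Psg16 (0.70) and Ceacam14 (0.72). Prl3b1 had 1 and 0 counts in the fasted libraries and 371326 and 374066 in the non-fasted libraries, close to Ceacam11 in both groups. For Ceacam2 they were Ighd (0.071), Agap2 (0.079) and Rsph9 (0.13), all with 39 or fewer counts in each library.

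Genes tied to CEACAM1 by function were then read from 4 lists, each beside the median log2 fold change of all tested genes, -0.13 by median of ratios and -1.90 with hepatocyte-marker scaling. The second scale lowers the log2 fold change of each listed gene, and of Ceacam1, by nearly the same amount. A change of sign between the scales therefore follows from the value by median of ratios and is no separate likeness to Ceacam1. Changes below are fasted over non-fasted by median of ratios unless stated, and "higher" or "lower" means past the test. The counts stand against 37.2% of all tested genes higher and 45% lower by median of ratios, and 4.62% higher and 90.2% lower with hepatocyte-marker scaling, so a list with most genes lower on that second scale is near the background. Of 16 binding partners of CEACAM1, 3 were higher and 12 lower, with a median of -0.80. With hepatocyte-marker scaling 15 were lower, with a median of -2.57. Both phosphatases that bind its tail were past the test in opposite directions, Ptpn6 (SHP-1) higher at 0.79 and Ptpn11 (SHP-2) lower at -0.47, but with hepatocyte-marker scaling both were lower, at -0.98 and -2.24. The partner with the highest mean count, Ctnnb1, which encodes beta-catenin, had 5113 ± 36.4 normalized counts in fasted libraries, against 9139 ± 121 in non-fasted libraries (SD, n = 2 each). The largest falls were in Havcr2, which encodes the immune receptor TIM-3 (-5.78), Anxa2, an annexin (-5.63), the kinase gene Src (-4.48) and Flna, which encodes the actin crosslinker filamin A (-3.78). Fasn, the fatty acid synthase bound by phosphorylated CEACAM1, had 1759 ± 32.9 normalized counts in fasted libraries, against 4131 ± 45.7 in non-fasted libraries, a change of -1.23.

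Of 8 genes of insulin reception and clearance, 5 were higher and 3 lower, with a median of 0.35. With hepatocyte-marker scaling 7 were lower, with a median of -1.42. Insr, the insulin receptor that phosphorylates CEACAM1, had 4723 and 4459 normalized counts in the fasted libraries, against 1923 and 1851 in the non-fasted libraries. Its change was 1.28 (SE 0.0370, edgeR adjusted p = 2.01e-09) and -0.49 with hepatocyte-marker scaling. Egfr, the most abundant of the list, was at 1.10 and, with hepatocyte-marker scaling, -0.67. Irs1, an insulin receptor substrate, was at 1.83 and, with hepatocyte-marker scaling, not past the test at 0.06. Irs2 (-1.20) and Igf1r, the receptor of insulin-like growth factor 1 (-3.50), were lower on both scales.

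Of 7 regulators of Ceacam1 transcription, 3 were higher, 2 were lower and 2 were not past the test, with a median of 0.02, and of -1.75 with hepatocyte-marker scaling. Ppara, the fatty acid receptor known to repress Ceacam1 in mouse liver, had 9960 and 10124 normalized counts in the fasted libraries, against 1404 and 1352 in the non-fasted libraries. It was higher on both scales, by 2.87 and, with hepatocyte-marker scaling, 1.09, as was Hnf4a, a hepatocyte transcription factor and the most abundant of the list, by 2.06 and 0.29. Ceacam1 itself was higher by median of ratios, at 1.14, and lower with hepatocyte-marker scaling, at -0.63. Whether Ppara or Hnf4a bears on Ceacam1 here was not tested. Pparg, a receptor known to activate Ceacam1 in mouse, was lower on both scales, at -1.39 and -3.16. Of the USF genes, whose E-box stands in the Ceacam1 window, Usf2 was higher at 0.43 and, with hepatocyte-marker scaling, lower at -1.34, whereas Usf1 was at -0.09 and not past the test by median of ratios. The second lower gene, Irf1, at -0.16 (edgeR adjusted p = 0.0169), was past the test only narrowly and lost its call when any 1 of the 4 libraries was left out, with adjusted p between 0.0515 and 0.372.

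Of 15 genes of the bile canaliculus, whose membrane holds hepatocyte CEACAM1, 12 were higher and 2 lower, with a median of 1.23. The list also holds tight junction and trafficking genes, so its counts and median are not of the membrane alone. With hepatocyte-marker scaling 4 were higher and 9 lower, with a median of -0.54. Abcb11, the bile salt export pump and the most abundant of the list, was at 1.23 and, with hepatocyte-marker scaling, -0.54. Ceacam1 was at 1.14 and -0.63. The sterol transporters Abcg5 (2.86 and 1.09) and Abcg8 (2.69 and 0.92), the phospholipid transporter Abcb4 (2.74 and 0.97) and the conjugate export pump Abcc2 (2.34 and 0.57) were higher on both scales. Tjp1, a tight junction scaffold (-1.78 and -3.55), and Atp8b1, a phospholipid flippase (-1.53 and -3.30), were lower on both. Which genes of the list changed sign follows from their values by median of ratios, because the second scale shifts them nearly alike. By median of ratios 1 gene was not past the test, and with hepatocyte-marker scaling 2 were not.

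**Figure D5:**
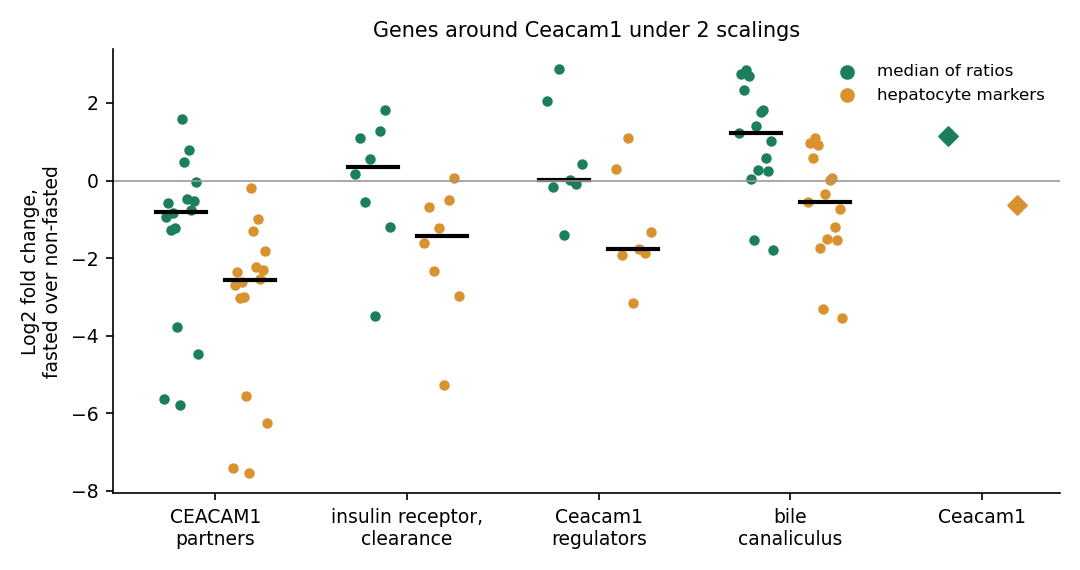
Log2 fold change (fasted over non-fasted) in 4 lists around CEACAM1, a point per tested gene, and of Ceacam1 itself (diamonds), green by median of ratios and orange by hepatocyte markers, with black bars at the medians. Ceacam1 is at 1.14 by median of ratios and at -0.63 by hepatocyte markers, and the bile canalicular median at 1.23 and -0.54.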

How the data were processed

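The authors deposited 1 file of raw gene counts for each of 4 libraries, with no normalization. Tools named in the submitters' processing notes are Trimmomatic, STAR, featureCounts, FastQC, MultiQC and DESeq2 1.32.0, with build GRCm39. For strand and multi-mapping reads, which bear on paralogs, the setting is not given in the sources used here. Of the 27179 identifiers, 1904 had no symbol in the RefSeq table used, which follows GRCm38.p6 and served for names and neighbours. Groups follow the sample titles.

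The members and lists were chosen with earlier results of these data known. In R 4.3.3, genes passing filterByExpr were scaled with median-of-ratios factors, and the test was that of edgeR 4.0.16 (quasi-likelihood, two-sided, Benjamini-Hochberg at 0.05). The script was tested on simulated counts in which few genes changed, so that test does not check the scaling here. Shares have Wilson 95% intervals. Ratios of low counts have exact 95% intervals, and a group at 0 was set to 3 counts. Named genes are all members, the other Ceacam genes, neighbours, the 3 genes most alike in pattern, and, per list, the highest mean and the 4 largest changes. Other genes named, among them Ceacam-ps1, Gm5155 beside Ceacam5, Ptpn6, Ptpn11, Fasn, Irf1, Usf1, Tjp1 and Atp8b1, were chosen after their values were seen. Sequences were compared in Python 3.11.15 with Biopython 1.88, over GENCODE transcripts and RefSeq promoters. Replicate numbers did not pair libraries. Alternatives were other scalings and filters, DESeq2 1.42.0, limma 3.58.1, a minimum fold of 2, thinning, a replicate block and leaving out each library.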

Additional observations from a re-analysis of the deposited data

How the results depend on the processing

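The log2 fold change of Ceacam1 (fasted over non-fasted) was 1.14 by median of ratios and reversed to -0.63 with hepatocyte-marker scaling. It was 0.63 with total counts, 1.26 with upper quartile scaling, 1.11 with no filter, 1.15 with a minimum of 10 counts, 1.16 thinned to equal totals and 1.12 to 1.18 without each library. The log2 ratio of the summed placental members, -18.22, was -18.73 with total counts, -18.10 with upper quartile scaling and -19.99 with hepatocyte-marker scaling. Without each library values ran between -18.24 and -15.61, but these are not 1 quantity: -15.61, without fasted library 2, is a bound set by the floor, since that library holds the only fasted count, and the others are ratios on that count. Their mean share of 1.60% of non-fasted counts did not move. For placental members, filters, DESeq2 and limma-voom were not run on folds, since a fitted fold against 0 depends on the prior count.

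Over all genes 5756 were higher and 6965 lower. Higher genes numbered 3550 with total counts, 2273 with a minimum fold of 2 and 715 with hepatocyte-marker scaling, and lower genes 3990 with a minimum fold of 2 and 13949 with hepatocyte-marker scaling. With hepatocyte-marker scaling, 0 binding partners (0 also at an unadjusted p under 0.05, edgeR) and 0 insulin genes (also 0) were higher against 3 and 5 by median of ratios, and DESeq2 and limma-voom, run without that scaling, called 3 and 5. The same scaling gave 7 lower insulin genes, 5 lower regulators, and 4 higher and 9 lower canalicular genes. With total counts there were 3 higher insulin genes, 4 lower regulators and 5 lower canalicular genes. A minimum fold of 2 left 1 higher and 6 lower partners, 3 higher and 1 lower insulin genes and 1 lower regulator. Lower regulators also numbered 1 with upper quartile scaling, with DESeq2 and without each library (lowest and highest both 1). The causes were not tested.

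Same-numbered libraries did not deviate together (correlation of deviations -0.0053), and with a replicate block 5743 genes were higher and 6929 lower and Ceacam1 stayed at 1.14. Depth limits Ceacam2, Ceacam9, Ceacam16 and Ceacam20, each with 35 or fewer counts in every library.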
